A study of Mus musculus with 8 samples.

Results

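The aminoacyl-tRNA synthetases, the enzymes that attach each amino acid to its tRNA, were followed in wild-type (WT) and METTL5 knockout (KO) mouse embryonic stem cells. They were 36 of the 23845 gene symbols in each table, 20 for cytosolic enzymes and 16 for mitochondrial enzymes, and were matched by gene symbol. The family was chosen for description with earlier results of these data known. All 36 were present under their plain symbols. METTL5 is the methyltransferase that places N6-methyladenosine on 18S ribosomal RNA. Ribosome-protected mRNA fragments (Ribo-seq, here called footprints) came from 2 WT and 2 KO libraries, and total RNA (RNA-seq) from 2 WT and 2 KO libraries. Both genotypes were mESC at passages 5 to 10, and no treatment is named. The labels give no strain, sex or clone number for the cells, and they do not say whether the libraries of a genotype came from separate cultures, although the series text calls them biological replicates. P-values therefore measure the spread between these libraries, which may be technical.

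A synthetase recognises its amino acid, activates it with ATP and transfers it to the matching tRNA, so the set of enzymes supplies every ribosome with charged tRNA. The cytosolic enzymes serve translation of nuclear mRNAs, and several of them are held together in the multisynthetase complex by scaffold proteins. The mitochondrial enzymes are encoded in the nucleus, imported, and charge the tRNAs of the mitochondrial genome. The enzymes fall into class I and class II, which differ in the fold of the catalytic domain. Many cytosolic synthetase genes are known targets of ATF4, the transcription factor of the integrated stress response, which is also activated when amino acids are short.

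Footprint libraries held 8401463 to 11487964 counts and the RNA-seq libraries 152195 to 219567. Levels are given as CPM, in which each count is divided by the total of its library and scaled to one common total, and 3 counts corresponded to 0.261 to 0.357 CPM in footprints and 13.7 to 19.7 CPM in RNA-seq, which covers counting error only. Footprints on Mettl5, the targeted gene, stood at 41.2 and 45.9 CPM in WT and at 4.08 and 4.79 CPM in KO, a log2 difference of -3.27 (SE 0.22, edgeR adjusted p = 0.00131). All 12 embryonic stem cell markers examined were detected in every footprint library, with Pou5f1 at 636 to 894 CPM. Genes of other cell types differed between the genotypes, for 12 fibroblast markers with summed footprints of 108 and 205 CPM in WT against 481 and 693 CPM in KO. Of the 10 tested, 9 had positive log2 fold changes and 3 were called higher, Col5a1, Col3a1 and Tagln, beside 1.83% of all genes tested. Col5a1 stood at 16.3 and 17.5 CPM in WT and at 49.2 and 77.7 CPM in KO. Thy1 went the other way, at 20.2 and 25.1 CPM in WT and at 14.8 and 16.5 CPM in KO. Lum was at 0 in all 4 libraries. The 12 endoderm markers summed to 1352 and 1558 CPM in WT and to 844 and 1077 CPM in KO. Of the 11 tested, 10 had negative values and 4 were called lower, beside 0.617% of all genes tested. Lamb1, which held a large part of the endoderm sums, stood at 438 and 453 CPM in WT and at 435 and 534 CPM in KO. For Lamb1 the genotypes thus overlapped. The 10 mesoderm markers summed to 2.53 and 4.53 CPM in WT and to 19.3 and 29.7 CPM in KO. Of the 6 tested, all 6 had positive values and 3 were called higher, beside 1.83% of all genes tested. The part of these cells in the results below was not tested, and fewer cells of a type cannot be told apart from less RNA per cell.

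No synthetase was called in the footprint comparison of KO with WT. The fit was edgeR's quasi-likelihood test over 12315 genes with p-values adjusted after Benjamini and Hochberg, and calls were made under 0.05. Of the 36 members 0 were called, beside 2.44% of all genes tested (1.83% higher and 0.617% lower in KO), and the smallest adjusted p among them was 0.158, that of Yars2. DESeq2 and limma on log2(TPM + 1) also called 0 members. An unadjusted p below 0.05 was reached by 2 members, Kars and Yars2, or 5.56%, against 19.4% of all genes tested. The log2 fold changes of all 36 lay between -0.48 and 0.56, with 17 positive and 19 negative values. All 36 members had enough footprints to pass the filter on low counts. With the replicate number as a blocking factor, 5 of the 36 were called, Mars and Yars2 higher and Dars, Kars and Lars2 lower, beside 24% of all genes tested (12.7% higher and 11.3% lower).

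The precision of these libraries set a bound on what was not called. The 95% interval of the fold change stayed within 2-fold in both directions for all 20 cytosolic enzymes and for 13 of the 16 mitochondrial enzymes, against 65.3% of all genes tested. The exceptions were Lars2, Pars2 and Wars2. An interval within 1.5-fold was reached by 13 cytosolic and 5 mitochondrial enzymes, against 22% of all genes tested. The median SE of the log2 fold change was 0.16 for the cytosolic and 0.21 for the mitochondrial enzymes.

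The levels of the enzymes differed far more between genes than between genotypes. On the deposited TPM scale, which divides by gene length, the cytosolic enzymes had means over the 4 footprint libraries from 74.8 for Wars, the tryptophanyl enzyme, to 377 for Aars, the alanyl enzyme. Every one of the 20 stood above every mitochondrial enzyme other than Lars2. Without Lars2, the mitochondrial enzymes ran from 1.37 TPM for Wars2 to 54.2 TPM for Yars2. The median level was 144 TPM for the cytosolic and 11.4 TPM for the 15 mitochondrial enzymes without Lars2. The spread was 5.04-fold among the cytosolic and 39.7-fold among those 15 mitochondrial enzymes. Of the 10 members with the highest TPM, 8 were also among the 10 highest when footprints were divided by the number of codons.

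**Figure D1:**
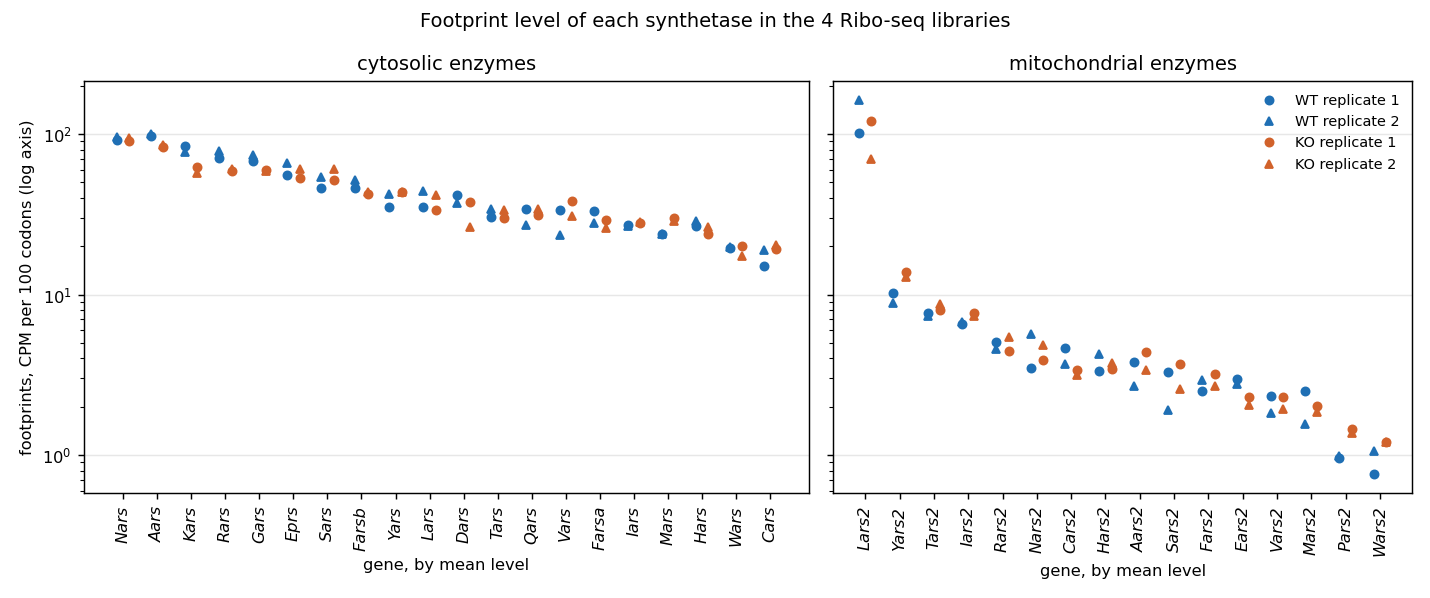
Footprint level of each synthetase in CPM per 100 codons (log axis) for the 4 Ribo-seq libraries, blue for WT and orange for KO, with circles for replicate 1 and triangles for replicate 2; genes are ordered by mean level within each compartment. The cytosolic enzymes lie between mean levels of 18.4 and 93.5, the mitochondrial enzymes other than Lars2 between 1.06 and 11.4, and Lars2 stands apart at 114.

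Of the 8 cytosolic enzymes of the multisynthetase complex, 5 had negative and 3 positive log2 fold changes, with a median of -0.07. Kars, the lysyl enzyme, which is also made in a mitochondrial form from the same gene, had footprints of 524 and 479 CPM in WT and of 389.9 and 356 CPM in KO. Both KO libraries lay below both WT libraries, a log2 difference of -0.42 (SE 0.15, adjusted p = 0.184, 95% interval -0.76 to -0.07). Rars, the arginyl enzyme, stood at 469 and 517 CPM in WT and at 389 and 399.9 CPM in KO, again without overlap (-0.31, SE 0.16, adjusted p = 0.330). Dars, the aspartyl enzyme, was at 209.5 and 186 CPM in WT and at 189 and 132 CPM in KO (-0.30, SE 0.18, adjusted p = 0.410). For Dars KO replicate 2 was the low library, while KO replicate 1 and WT replicate 2 were nearly level, and the genotypes were apart only after TMM scaling of the libraries.

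Mars, the methionyl enzyme, whose product also starts every protein, went the other way. It stood at 217 and 216 CPM in WT and at 272 and 259.7 CPM in KO, with no overlap (0.31, SE 0.14, adjusted p = 0.287). The Mars gene spans bases 127296221 to 127311786 of chromosome 10, minus strand (GRCm38), and 40 of the 2935 28-base words in its transcript also occur on the opposite strand in Ddit3, a stress response gene, so a few footprints could be assigned to either gene if strand was not used. Ddit3 also had a positive log2 fold change (1.08) and was not called. The part of such footprints in the Mars value was not tested. The remaining complex enzymes were Eprs, the joined glutamyl and prolyl enzyme (-0.09), Lars, the leucyl enzyme (-0.05), Iars, the isoleucyl enzyme (0.08), and Qars, the glutaminyl enzyme (0.11), with adjusted p values from 0.785 to 0.915. The scaffold proteins of the complex, Aimp1 (-0.18), Aimp2 (-0.04) and Eef1e1 (0.11), were also not called, with a smallest adjusted p of 0.570.

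Outside the complex, 12 cytosolic enzymes had a median log2 fold change of -0.04, with 4 positive and 8 negative values. Gars, the glycyl enzyme, which like Kars serves both compartments, was at 497 and 543 CPM in WT and at 436 and 431 CPM in KO, without overlap (-0.25, SE 0.15, adjusted p = 0.425). Aars, the most highly translated cytosolic enzyme on the TPM scale, was at 938 and 974 CPM in WT and at 802 and 832 CPM in KO, also without overlap (-0.21, SE 0.16, adjusted p = 0.514). Vars, the valyl enzyme, was at 426 and 297 CPM in WT and at 484 and 388 CPM in KO, so that the genotypes overlapped (0.28, SE 0.20, adjusted p = 0.4998). For Vars the replicate 2 library was the lower one in both genotypes.

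Cars, the cysteinyl enzyme, stood at 125 and 158 CPM in WT and at 160.1 and 169.7 CPM in KO (0.24, SE 0.17, adjusted p = 0.484). Yars, the tyrosyl enzyme, was at 198 and 238 CPM in WT and at 245 and 246 CPM in KO (0.18, SE 0.16, adjusted p = 0.580). Wars, with the lowest TPM of the cytosolic enzymes, was at 94.0 and 95.8 CPM in WT and at 97.0 and 83.6 CPM in KO (-0.06, SE 0.15, adjusted p = 0.865). The KO libraries lay above the WT libraries for Yars, while for Wars they lay on both sides. For Cars the genotypes stood apart in these CPM but overlapped after TMM scaling of the libraries.

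Farsa and Farsb encode the 2 different subunits of the cytosolic phenylalanyl enzyme, which joins both in equal numbers. Footprints per codon on Farsb were 1.40, 1.86, 1.46 and 1.67 times those on Farsa in WT replicates 1 and 2 and KO replicates 1 and 2. The ratio overlapped between the genotypes, and the log2 fold changes were -0.14 for Farsa and -0.18 for Farsb. The 15 members not given with library values here had log2 fold changes from -0.18 to 0.18 and adjusted p values of 0.565 or more. Of the 20 cytosolic enzymes 3 lay higher and 6 lower in both KO libraries than in both WT libraries, against 25.8% and 24.6% of all genes tested, or 50.4% in either direction.

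Among the mitochondrial enzymes, 10 of 16 log2 fold changes were positive, with a median of 0.09, against a median of 0.01 over all genes tested. Yars2, the tyrosyl enzyme, had the smallest p of the whole family. It stood at 48.4 and 41.8 CPM in WT and at 65.2 and 60.5 CPM in KO, without overlap (0.49, SE 0.17, adjusted p = 0.158, 95% interval 0.11 to 0.87). Pars2, the prolyl enzyme, was at 4.87 and 5.00 CPM in WT and at 7.40 and 7.05 CPM in KO (0.56, SE 0.25, adjusted p = 0.262). These levels rest on 60.8 counts per library on average, and both KO libraries lay above both WT libraries.

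Aars2, the alanyl enzyme, was at 37.1 and 26.5 CPM in WT and at 43.2 and 33.0 CPM in KO (0.26, SE 0.22, adjusted p = 0.563). Sars2, the seryl enzyme, was at 17.0 and 9.88 CPM in WT and at 18.99 and 13.4 CPM in KO (0.26, SE 0.28, adjusted p = 0.672). For both genes the genotypes overlapped, and the replicate 2 library was the lower one in each genotype. Tars2, the threonyl enzyme, stood at 55.3 and 53.2 CPM in WT and at 57.8 and 63.0 CPM in KO (0.17, SE 0.17, adjusted p = 0.629). Wars2, the tryptophanyl enzyme with the lowest TPM of the family, was at 2.73 and 3.83 CPM in WT and at 4.32 and 4.33 CPM in KO (0.42, SE 0.31, adjusted p = 0.518). For Tars2 and Wars2 the KO libraries lay above the WT libraries, by little against the WT spread of Wars2.

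Ears2, the glutamyl enzyme, stood at 15.6 and 14.4 CPM in WT and at 12.01 and 10.7 CPM in KO, without overlap (-0.39, SE 0.20, adjusted p = 0.341). Cars2, the cysteinyl enzyme, was at 25.8 and 20.5 CPM in WT and at 18.7 and 17.3 CPM in KO, again without overlap (-0.35, SE 0.20, adjusted p = 0.373). Mars2, the methionyl enzyme, was at 14.6 and 9.17 CPM in WT and at 11.8 and 10.9 CPM in KO, with both KO libraries inside the WT range (-0.07, SE 0.26, adjusted p = 0.923). Of the 16 mitochondrial enzymes 5 lay higher and 2 lower in both KO libraries, beside 25.8% and 24.6% of all genes tested.

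Lars2, the leucyl enzyme of mitochondria, stood apart from the rest of its group. Its entry held 918 and 1477 CPM in WT and 1094 and 627 CPM in KO, which was 61.0% to 80.4% of all footprints on the mitochondrial enzymes. Per codon its level was 22.1 to 55.9 times the median of the other mitochondrial enzymes and above that of Lars, its cytosolic counterpart, in every library. Its genotypes overlapped (log2 fold change -0.48, SE 0.29, adjusted p = 0.421), and the sign differed between replicate 1 (0.22) and replicate 2 (-1.17).

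The Lars2 entry varied even more in the RNA-seq tables, at 9658 and 1823 counts in WT and 161 and 229 counts in KO. In these tables Rn45s, the ribosomal RNA precursor, had 16891 and 7301 counts in WT and 971 and 1772 counts in KO, so the 4 libraries stood in the same order for both entries. In footprints they did not, since Rn45s was lowest in WT replicate 1 and Lars2 in KO replicate 2. Lars2 spans bases 123366927 to 123462666 of chromosome 9, plus strand (GRCm38). Of its 3867 28-base words, 51 also occur in the noncoding genes AA474408 and Gm15564, and all 51 lie in the 3′ untranslated part, between bases 3172 and 3329 of a transcript whose coding part ends at base 2905. The part of rRNA or of shared sequence in the Lars2 values was not tested.

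**Figure D2:**
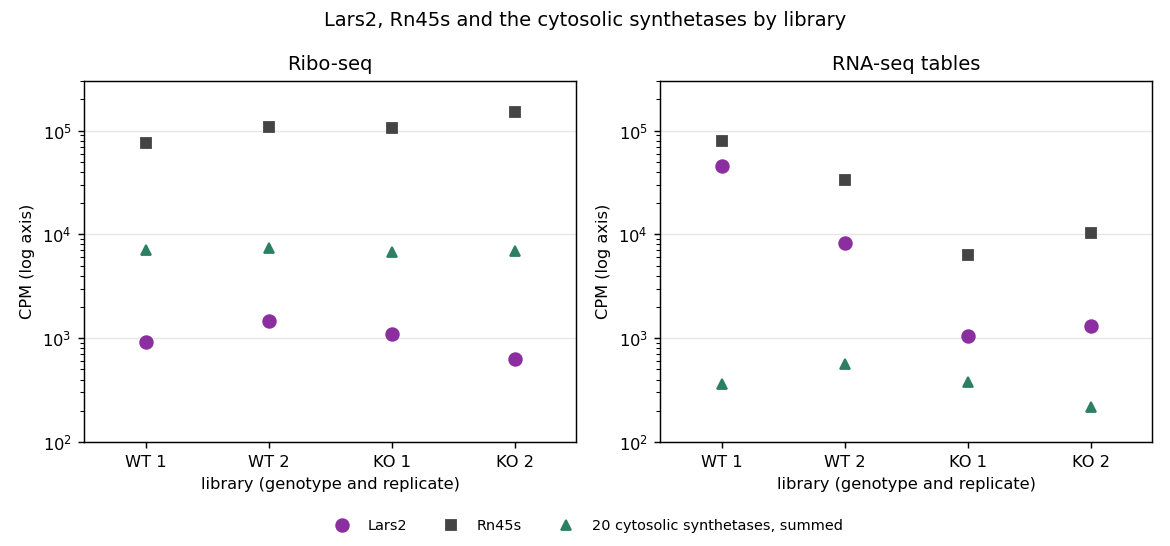
Level of Lars2 (purple circles), of Rn45s (black squares) and of the 20 cytosolic synthetases summed (green triangles) in CPM on a log axis, for each Ribo-seq library (left) and each RNA-seq table (right). In the RNA-seq tables Lars2 and Rn45s stand in the same order of libraries, with Lars2 at 9658 counts in WT replicate 1 and at 161 and 229 counts in KO, while in footprints it runs from 627 to 1477 CPM.

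The cytosolic and the mitochondrial enzymes were then compared as groups, as a description without a test, because the members were chosen with earlier results known. The median log2 fold change was -0.06 for the cytosolic and 0.09 for the mitochondrial enzymes, a difference of -0.15, and 0.13 for the mitochondrial enzymes without Lars2. Single libraries moved these small values. The cytosolic median was 0.05 without KO replicate 1, the mitochondrial median was 0.18 without WT replicate 1, and the difference ran from -0.26 without WT replicate 1 to -0.03 without KO replicate 1. Footprints on the cytosolic enzymes made up 0.712% and 0.744% of the counts in WT and 0.678% and 0.694% in KO. Rn45s took 7.58% to 15.2% of the footprint counts, and with it left out the shares were 0.771% and 0.835% in WT and 0.758% and 0.818% in KO, so the separation of the genotypes was lost. The 15 mitochondrial enzymes without Lars2 made up 0.0387% and 0.0360% in WT and 0.0418% and 0.0401% in KO. Without Rn45s these shares were 0.0418% and 0.0404% in WT and 0.0467% and 0.0473% in KO, with both KO libraries above both WT libraries in either form.

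**Figure D3:**
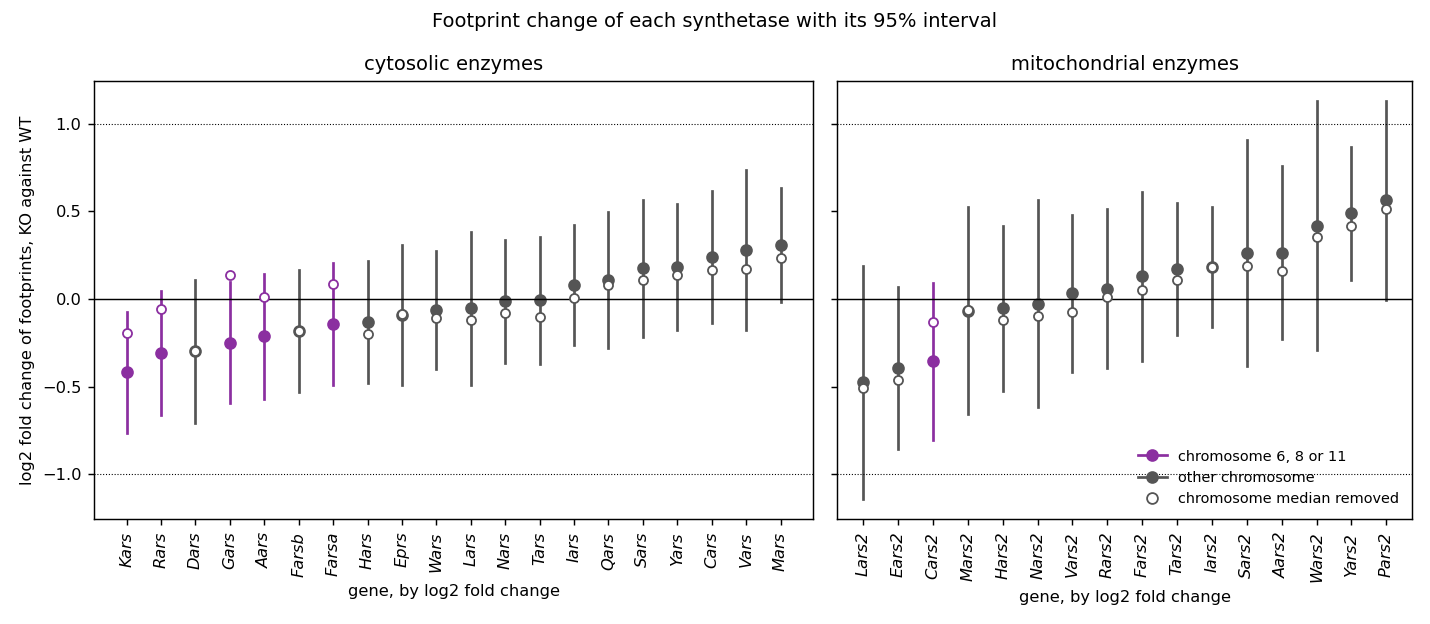
Log2 fold change of footprints, KO against WT, for each synthetase (filled circles) with its 95% interval (lines), ordered by value, with genes of chromosomes 6, 8 and 11 in purple and open circles for the fold change after the chromosome median was removed. The intervals of Kars and Yars2 stay on one side of 0, and the 6 genes of those chromosomes all lie below 0.

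Position in the genome moved with the direction of the change. Footprints of chromosomes 6, 8 and 11 were lower as a whole in KO, with median log2 fold changes of -0.38, -0.22 and -0.25 over 566, 676 and 1041 tested genes, while the other autosomes and the X chromosome had medians from -0.02 to 0.10. The 6 members on these chromosomes were Gars on 6, Aars, Farsa, Kars and Cars2 on 8, and Rars on 11. All 6 had negative log2 fold changes, from -0.14 to -0.42. Of all tested genes on chromosomes 6, 8 and 11, 83.4%, 70.9% and 75.7% had negative values, against 49.2% over all genes tested. With chromosome medians removed, Kars was at -0.19 (adjusted p = 0.575), Rars at -0.06, Cars2 at -0.13, Aars at 0.01, Farsa at 0.08 and Gars at 0.13. The median of the 6 went from -0.28 to -0.02. Of the cytosolic enzymes 13 had negative values before and 10 after this step, and the mitochondrial median went from 0.09 to 0.03. A cause of the chromosome differences was not tested.

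By structural class, the 9 cytosolic class I enzymes had 6 positive and 3 negative log2 fold changes (median 0.11), and the 10 cytosolic class II enzymes 1 positive and 9 negative (median -0.16), with Eprs, which carries both classes, left out. Sars was the positive value of class II (0.17). Over all genes tested, 49.2% had negative values. Of the 10 cytosolic class II genes, Aars, Farsa, Gars and Kars lie on chromosomes 6 and 8. With chromosome medians removed, Aars (0.01), Farsa (0.08) and Gars (0.13) had positive values. The medians were then 0.08 for class I and -0.09 for class II. Before this step the mitochondrial enzymes showed another order, with medians of 0.03 for 9 class I and 0.17 for 7 class II enzymes. No class held a called gene.

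Genes for the cytosolic and the mitochondrial enzyme of the same amino acid formed 17 pairs, Farsa and Farsb each being paired with Fars2 and Eprs with both Ears2 and Pars2. Footprints per codon on the cytosolic partner were 3.69 to 51.7 times those on the mitochondrial partner, leaving out the leucyl pair, where the ratio was 0.372. The smallest of these ratios belonged to the tyrosyl pair, with 3.43 and 4.78 in WT and 3.14 and 3.40 in KO. The largest belonged to Eprs and Pars2, with 58.7 and 67.6 in WT and 36.5 and 43.9 in KO. Both KO ratios lay below both WT ratios in these pairs and in 8 of the 17 in all, and above them in 2. No share over all genes exists for such ratios, and of single genes tested 50.4% did not overlap in either direction. The pairs are not independent, since Eprs and Fars2 each stand in more than 1, so no shift between the compartments is drawn from this count. The log2 fold changes of the partners had the same sign in 8 of the 17 pairs.

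Other genes of tRNA charging and of translation were followed with the same fit. Of 4 mitochondrial charging partners, the amidotransferase subunits Gatb (0.31), Gatc and Qrsl1 (0.23) and the formyltransferase Mtfmt (-0.25), 0 were called (median 0.15). Of 9 genes for other charging and editing steps 0 were called (median -0.12), with Tarsl2, a further threonyl enzyme, at 11.3 and 10.0 CPM in WT and at 6.65 and 7.49 CPM in KO (-0.57, SE 0.24, adjusted p = 0.229). Of 27 tested genes for tRNA maturation and export 0 were called and 22 had negative values (median -0.21). Over all genes tested, 2.44% were called and 49.2% had negative values. Trnt1, which adds the CCA end that synthetases charge, stood at 105 and 86.4 CPM in WT and at 56.1 and 57.7 CPM in KO (-0.74, SE 0.17, adjusted p = 0.0586) and lies on chromosome 6. Ssb, the La protein, which binds the 3′ end of tRNA precursors, stood at 537 and 553 CPM in WT and at 381 and 383 CPM in KO (-0.50, SE 0.15, adjusted p = 0.126) and lies on chromosome 2. Its gene spans bases 69861562 to 69871846, plus strand. Mettl5, the targeted gene, spans bases 69871198 to 69885615 of that chromosome, minus strand, so the annotated genes overlap. The part of the edited locus in the Ssb value was not tested. Elac2, which trims the 3′ end of tRNA precursors, had -0.53 and lies on chromosome 11 (adjusted p = 0.199). After removal of chromosome medians the median of these genes was -0.27. Of 11 tested mitochondrial translation factors 0 were called (median -0.02), and of 7 elongation partners, a list that holds Vars itself, 0 were called, with Eif5a at -0.37 and Eef1a1, which delivers charged tRNA to the ribosome, at -0.14. An unadjusted p below 0.05 was reached by 0 of the mitochondrial charging partners and of the elongation partners, by 1 gene of the other charging and editing list, by 5 of tRNA maturation and export and by 3 mitochondrial translation factors, beside 19.4% of all genes tested. With the replicate block, 7 genes of tRNA maturation and export were called lower, Trnt1 (adjusted p = 3.14e-08), Ssb and Elac2 among them. So were 3 of other charging and editing and 4 mitochondrial translation factors, beside 11.3% of all genes. The block called 24% of all genes tested in either direction, and it called Lars2 lower although its sign differed between replicate numbers. A call with the block therefore does not require the replicate numbers to agree in sign.

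Targets of ATF4 other than synthetases had higher values than the synthetases. Of 35 tested, 30 were positive and 0 were called, beside 49.2% negative and 2.44% called over all genes. An unadjusted p below 0.05 was reached by 11 (19.4% of all genes). The median was 0.40 against -0.06 for the cytosolic synthetases and 0.01 for all genes. In both KO libraries 20 of the 35 lay above both WT libraries, against 25.8% of all genes tested. Cth, an enzyme of cysteine synthesis, stood at 30.6 and 38.6 CPM in WT and at 51.8 and 68.2 CPM in KO (0.82, SE 0.22, adjusted p = 0.0914). Slc6a9, a glycine transporter, stood at 4.59 and 4.76 CPM in WT and at 8.04 and 8.44 CPM in KO (0.83, SE 0.25, adjusted p = 0.122). Sesn2, an amino acid sensor, had 0.59 (adjusted p = 0.148). Against the 30 positive values stood 5 negative ones, among them Mthfd2 (-0.49), Cbs (-0.38), Asns (-0.29) and Pycr1 (-0.22). With the replicate block, 14 of the 35 were called higher and 2 lower, beside 12.7% and 11.3% of all genes. The adjusted p values with the block were 4.77e-08 for Cth, 0.00738 for Slc6a9 and 0.000111 for Sesn2. As said above, a call with the block does not require the replicate numbers to agree in sign. Atf4 itself had 50.2 and 54.2 CPM in WT and 49.4 and 56.8 CPM in KO. Among 9 sensors and factors of the stress response 0 were called, and 1, Eif2s1, the subunit of the initiation factor that these sensors phosphorylate, had an unadjusted p below 0.05 (-0.38, adjusted p = 0.254, with the block 0.00619).

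**Figure D4:**
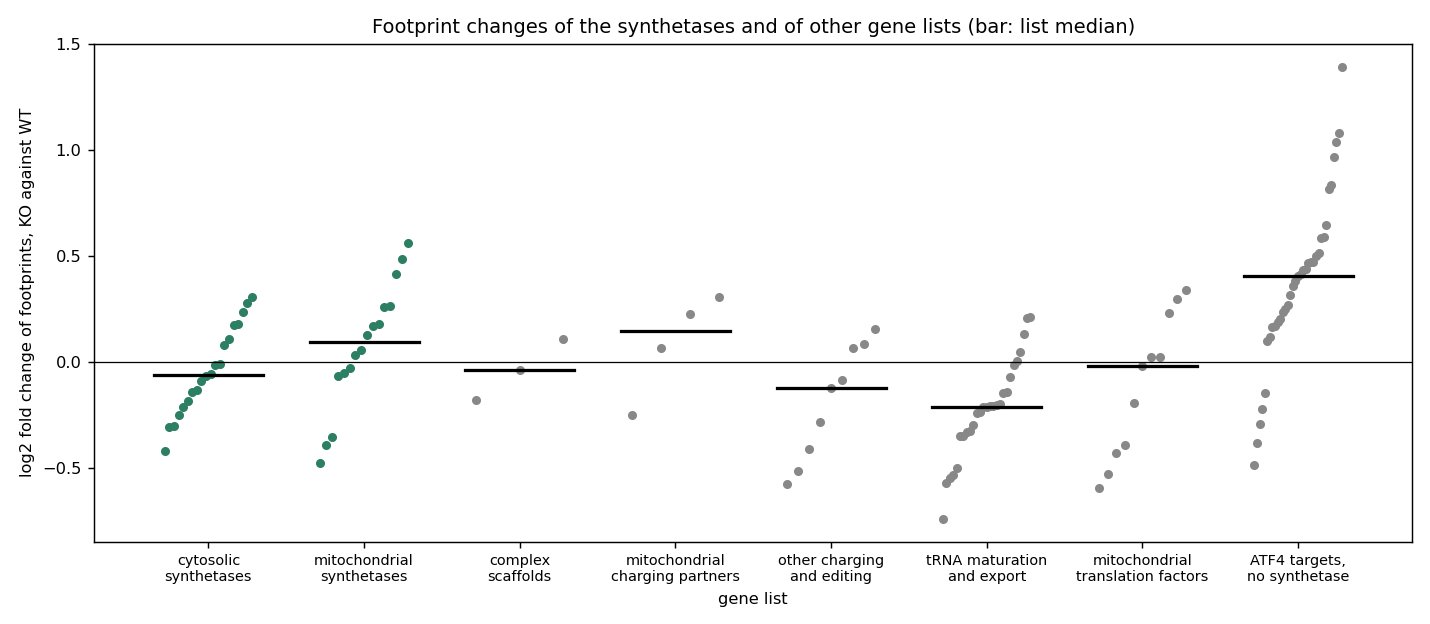
Log2 fold change of footprints, KO against WT, for each tested gene of 8 lists, green for the synthetases and grey for the other lists, with a black bar at each list's median. The cytosolic and mitochondrial synthetases have medians of -0.06 and 0.09, tRNA maturation and export genes -0.21 and ATF4 targets other than synthetases 0.40.

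ATF4 binds with partner factors to a composite element, TGATGNAA on either strand. It was looked for in the 250 bases before the start site in the RefSeq promoter table (GRCm38.p6), which matched 13 cytosolic and 14 mitochondrial synthetases. The element was found for 3 of the 13 cytosolic enzymes (23.1%) and for 0 of the 14 mitochondrial enzymes. It was found for 10 of 31 matched ATF4 targets other than synthetases (32.3%). Of the 9292 genes tested in footprints and matched to a promoter, 214 (2.3%) held the element, and of all 32851 promoters 3.45%. The stretches around it are shown because the list of other ATF4 targets and the synthetases differed in their medians, and capitals mark the element, which stands in all 3 as its reverse complement, TTNCATCA.
Aars: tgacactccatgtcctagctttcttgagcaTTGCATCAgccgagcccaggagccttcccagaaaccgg
Gars: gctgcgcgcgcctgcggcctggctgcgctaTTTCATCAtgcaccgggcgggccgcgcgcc
Tars: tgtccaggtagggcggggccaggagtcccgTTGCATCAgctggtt
These lie at chr8:111033700-111033767 on the plus strand, chr6:55037941-55038000 on the plus strand and chr15:11399659-11399703 on the minus strand. The annotations differ in their start sites. By GENCODE M21 Aars begins at base 111033144, so that its stretch lies inside the gene as annotated there, and the stretch of Tars reaches past the GENCODE start at base 11399665, while that of Gars lies before the GENCODE start at base 55038007. Their genes, Aars, Gars and Tars, had footprint log2 fold changes of -0.21, -0.25 and -0.01. Tars, the threonyl enzyme, stood at 219.7 and 247 CPM in WT and at 217 and 242 CPM in KO. With chromosome medians removed the values were 0.01, 0.13 and -0.10, so the sign turned for Aars and Gars. Of the 8 tested other ATF4 targets with the element, 6 had positive and 2 negative values, beside 49.2% negative values over all genes tested. A match is a description of the sequence, not of binding.

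The RNA-seq tables were too thin to say whether the mRNAs of these enzymes differed. Leaving out Lars2 and Wars2, no member had more than 12 counts in any RNA-seq library, and the 20 cytosolic enzymes together had 76.1 and 123 counts in WT and 57.1 and 38.0 in KO. That corresponded to 360.2 and 560.1 CPM in WT and to 375 and 219 CPM in KO, which overlapped. Of the 36 members 2 passed the filter on low counts, Lars2 and Wars2, and 0 of these were called, beside 6.37% of the 2087 genes tested. An unadjusted p below 0.05 was reached by Lars2, beside 23.1% of those genes. The log2 difference, KO against WT, was -4.63 for Lars2 (SE 1.16, adjusted p = 0.152, unadjusted p = 0.0261) and 0.76 for Wars2 (SE 0.43, adjusted p = 0.341). The Lars2 value hung on the WT libraries, which differed several-fold in its count, and it was called without WT replicate 1 (-2.87, adjusted p = 4.44e-53) and without WT replicate 2 (-5.44, adjusted p = 2.68e-161), when the lone WT library was taken to vary like the KO pair.

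Translational efficiency, footprints relative to RNA-seq counts of the same gene, could be tested for the same 2 members as the interaction of assay and genotype. It called 0 of them, beside 9.26% of the 1458 genes tested, and 1, Lars2, had an unadjusted p below 0.05, beside 24.4%. The log2 change was 4.16 for Lars2 (SE 1.21, adjusted p = 0.107, unadjusted p = 0.0174) and -0.31 for Wars2 (SE 0.51, adjusted p = 0.760). Lars2 was called without WT RNA-seq replicate 1 (2.67, adjusted p = 0.0133) and without WT RNA-seq replicate 2 (5.13, adjusted p = 0.000516).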

How the data were processed

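The submitters' processing notes name mm10 as the build and RSEM and Bowtie2 2.3.4.3 as tools. Settings, strand included, were not given in the sources used here. Expected counts from RSEM, which divide reads shared between genes, stand in the deposited tables per the file headers, beside deposited TPM and FPKM values and gene lengths. Expected counts were rounded for the tests, deposited TPM gave levels between genes, and deposited FPKM was not used. The small RNA kit named in the labels' protocols was used for both assays.

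Ribo-seq and RNA-seq were fitted apart with edgeR 4.0.16 (robust quasi-likelihood, TMM, filterByExpr). Translational efficiency was the assay by genotype interaction over 8 libraries. Intervals of 95% used the SE derived from the F statistic. Overlap of libraries was judged on TMM-scaled CPM. Codons and positions came from GENCODE M21 on GRCm38. Words of 28 bases in 1 transcript per member were looked up in all other genes' transcripts; 14 members shared none, and Aars, Farsb, Iars, Cars2 and Iars2 shared over 10%. The chi-square per degree of freedom between replicates was 2.96 to 24.1.

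The members and lists were chosen with earlier results of these data known. Library values were given for the 4 largest rises and falls per compartment (mean count of at least 50) and the 3 highest and 2 lowest by TPM. Of each other list, up to 3 genes with the smallest p could be named. Tars, Pou5f1, Lum, Thy1, Lamb1, Mthfd2, Cbs, Asns, Pycr1, the Ddit3 value and the replicate pattern of Rmrp were added after their values were seen. Alternatives used DESeq2 1.42.0 and limma 3.58.1, other scalings and filters, a replicate block, removal of chromosome medians and leaving out each library. Levels per protein length were not computed, and coding length was used instead. Steps were tested on simulated counts.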

Additional observations from a re-analysis of the deposited data

How the results depend on the processing

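Adding a replicate block to the footprint fit called 2960 genes, 24% of those tested, and 5 of the 36 synthetases, or 13.9%: Mars (0.31, adjusted p = 0.0353) and Yars2 (0.49, 0.00117) higher, and Kars (-0.42, 0.00552), Dars (-0.31, 0.0301) and Lars2 (-0.48, 0.00657) lower, although the sign for Lars2 differed between the numbers. The labels do not tie equal numbers to one day or batch, but the deposited names of same-numbered WT and KO footprint tables share a tag that has the form of a date. Deviations of same-numbered libraries correlated by 0.432 in footprints and 0.0525 in RNA-seq, and Rmrp stood at 719 and 902 CPM in the replicate 1 footprint libraries and at 30.7 and 26.7 CPM in those of replicate 2. In the other alternatives run, leaving out each library included, 0 synthetases were called. The 20 named members kept their side of the threshold in 234 of 239 recomputed values, the block giving the other 5.

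The 301 footprint calls over all genes became 1110 without a filter on low counts, 186 at a mean count of at least 50, 172 with limma on log2(TPM + 1), and 189 to 761 when a library was left out. The mitochondrial median was 0.063 with limma on log2(TPM + 1), 0.032 with chromosome medians removed, 0.13 without Lars2 (an alternative added after its values were seen) and 0.081 to 0.18 without single libraries. The cytosolic median was -0.10 to 0.053 without single libraries. The difference of the medians was -0.058 with chromosome medians removed and -0.26 to -0.028 without single libraries. RNA-seq calls went from 133 to 75 with DESeq2 and ran from 73 to 242 without single libraries, and the 135 calls of translational efficiency ran from 29 to 120 without single libraries. Where a library was left out, the lone library of its genotype was assumed to vary like the pair. The log2 ratio of the cytosolic share, KO to WT, was -0.09 and became -0.03 with Rn45s left out. The causes of these shifts were not tested. RNA-seq depth kept 34 of the 36 members from any test of mRNA level or translational efficiency.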
